A study of Mus musculus with 258 samples.

Results

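Genes for enzymes that place or remove methyl and acetyl groups on histones were followed through endocrine development in the mouse pancreas. The members were chosen by gene name: H3K4 methyltransferases with their core subunits, the numbered Setd, Kdm, Kat, Hdac and Sirt genes, Ep300 and Crebbp. Kdm6a and Kdm6b, the H3K27 demethylases, were left out. Kmt2e was grouped with the H3K4 methyltransferases by its name, without a claim that it has that activity. Of 40824 genes listed, 57 were members, and all 57 had enough reads to be tested in bulk.

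Lysine methylation and acetylation of histone tails change how tightly nucleosomes hold DNA and which proteins bind there. Kmt2a to Kmt2d and Setd1 proteins methylate H3K4 at enhancers and promoters inside complexes built on Wdr5, Rbbp5 and Ash2l, whereas Kdm1 and Kdm5 proteins take that mark off. Acetyltransferases such as Ep300 and Crebbp mark active enhancers, and deacetylases of the Hdac and sirtuin families remove acetyl groups, the latter in a reaction that consumes NAD.

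The series asked how chromatin changes while endocrine fate is chosen, and what the demethylase Jmjd3, the product of Kdm6b, does in that step. Bulk RNA was sequenced from 3 groups of sorted cells, 2 libraries a group: dorsal pancreas of E13.5 gave the Ngn3-low and the Ngn3-high gate, separated by a Ngn3-GFP reporter, and E17.5 embryos gave Ins1-RFP+ cells, which carry a red reporter of the insulin gene Ins1. Single cells came from the E13.5 dorsal pancreas in 4 groups: 49 WT Ngn3-low, 59 WT Ngn3-high, 69 Pdx1-Cre; Jmjd3 fl/fl Ngn3-low and 44 Pdx1-Cre; Jmjd3 fl/fl Ngn3-high cells. Pdx1-Cre deletes floxed DNA in cells of the pancreatic epithelium, but a Cre is named only for those embryos and not for WT, so Cre and deletion cannot be told apart. The bulk labels name no Jmjd3 allele, the labels name no animal for any sample, and p-values therefore measure only the spread between libraries, which may be technical.

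Bulk libraries held 11957415 to 17760214 reads in genes, and cells held 380478 to 1949839 with a median of 708409. The sorted groups carried the markers of their labels: 6 endocrine progenitor genes summed to 292 and 227 CPM (counts scaled to library size) in Ngn3-low, 11300 and 12360 in Ngn3-high, and 6 beta cell genes to 99580 and 67640 in Ins1-RFP+ libraries. The 12 acinar marker genes summed to 1459 and 26050 CPM in Ins1-RFP+ replicates 1 and 2. White blood cell markers summed to 3031 and 2510 CPM in Ngn3-low, 25.98 and 13.6 in Ngn3-high, and 80.6 and 135 in Ins1-RFP+ libraries, and to between 7.04 and 16.7 CPM in the single-cell groups. Summed cell division genes stood at 4151 and 4346 CPM in Ngn3-low against 701 to 803 in the other 4 libraries. The targeted gene Kdm6b stood at 131 (Ngn3-low) and 265 CPM (Ngn3-high) in WT cells and at 55.5 and 107 CPM in deleted cells.

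The promoters of members that moved most between the E13.5 gates are shown first, so that the genes can be seen beside their values. RefSeq sequences of build GRCm38.p6, from 250 bases before to 50 bases after an annotated start, were found for 45 of 57 members, Setd8 under its RefSeq name Kmt5a. Among members with 1 listed start, Hdac6 (chrX:7947840-7948139, minus strand), Kdm7a (chr6:39206724-39207023, minus strand) and Kdm1a (chr4:136602674-136602973, minus strand) rose most from Ngn3-low to Ngn3-high. Hdac11 (chr6:91156565-91156864, plus strand) and Kat2a (chr11:100712418-100712717, minus strand) fell most. All 5 are written 5′ to 3′ in the direction of the gene, with each E-box CANNTG, the motif class bound by Ngn3 and NeuroD1, in capitals.
Hdac6: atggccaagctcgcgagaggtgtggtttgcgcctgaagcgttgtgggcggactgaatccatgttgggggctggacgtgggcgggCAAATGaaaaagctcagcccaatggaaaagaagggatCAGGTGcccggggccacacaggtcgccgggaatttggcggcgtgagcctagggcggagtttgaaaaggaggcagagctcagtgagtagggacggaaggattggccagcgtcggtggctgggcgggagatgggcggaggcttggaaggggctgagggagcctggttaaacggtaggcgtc
Kdm7a: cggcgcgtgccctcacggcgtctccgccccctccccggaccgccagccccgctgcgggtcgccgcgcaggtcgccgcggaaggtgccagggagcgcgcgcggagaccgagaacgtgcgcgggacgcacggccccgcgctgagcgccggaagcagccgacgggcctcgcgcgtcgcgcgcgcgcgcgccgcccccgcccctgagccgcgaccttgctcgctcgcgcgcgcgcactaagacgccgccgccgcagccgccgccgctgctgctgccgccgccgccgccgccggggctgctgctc
Kdm1a: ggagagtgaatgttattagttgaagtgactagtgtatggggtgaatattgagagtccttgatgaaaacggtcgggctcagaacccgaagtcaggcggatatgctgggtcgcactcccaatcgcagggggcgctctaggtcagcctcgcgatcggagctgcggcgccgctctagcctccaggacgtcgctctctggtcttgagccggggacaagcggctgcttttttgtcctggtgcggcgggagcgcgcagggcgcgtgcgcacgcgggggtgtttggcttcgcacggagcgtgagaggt
Hdac11: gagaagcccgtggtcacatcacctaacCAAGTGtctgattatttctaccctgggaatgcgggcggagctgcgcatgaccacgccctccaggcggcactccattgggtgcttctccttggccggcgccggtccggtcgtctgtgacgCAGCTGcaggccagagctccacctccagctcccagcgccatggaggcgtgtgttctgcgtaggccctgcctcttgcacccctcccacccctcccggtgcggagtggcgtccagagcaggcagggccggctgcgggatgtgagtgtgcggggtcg
Kat2a: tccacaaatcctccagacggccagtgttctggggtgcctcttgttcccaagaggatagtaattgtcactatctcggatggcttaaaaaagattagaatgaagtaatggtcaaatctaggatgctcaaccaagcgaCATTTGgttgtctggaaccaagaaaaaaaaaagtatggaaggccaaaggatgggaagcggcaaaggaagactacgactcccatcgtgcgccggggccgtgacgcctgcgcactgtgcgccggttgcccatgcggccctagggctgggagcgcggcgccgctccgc
The palindromic motif CANNTG was found 2 times in the Hdac6 window, 2 times in Hdac11, 1 time in Kat2a and 0 times in Kdm7a and Kdm1a. It stood at least once in 72.3% of all 32851 promoters of the table and in 56.2% of the 64 member promoters. None of the 5 windows held CAGATG on either strand, which 17.2% of all promoters and 10.9% of member promoters did. The windows differed in base composition: Kdm7a was 82.7% G or C with 65 CpG dinucleotides, and Kat2a was 54.3% G or C with 19. Member promoters held a median of 22 CpG dinucleotides against 7 over all promoters, and GGGCGG on either strand stood in 60.9% of them against 35.7%. A match describes the letters of the window and not a bound site.

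Levels were compared between genes as RPKM, that is reads scaled by gene length and library size, computed from the counts and the listed gene lengths. The median member stood at 17.9 RPKM in Ngn3-low, 22.1 in Ngn3-high and 15.5 in Ins1-RFP+ cells, against medians of 8.12, 6.71 and 6.55 over the 15684 genes tested. Hdac1 was the highest member in Ngn3-low at 111 ± 4.66 RPKM (SD, n = 2). Kdm1a was the highest in both later groups, at 156 ± 4.12 RPKM in Ngn3-high and 78.7 ± 1.73 in Ins1-RFP+ cells (SD, n = 2). The lowest members were Setd4 at 3.06 ± 1.02 RPKM in Ngn3-low, Hdac9 at 0.624 ± 0.161 in Ngn3-high and Kdm1b at 2.43 ± 0.708 in Ins1-RFP+ cells.

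Between Ngn3-low and Ngn3-high cells, 23 members rose and 10 fell at an edgeR adjusted p below 0.05, and 24 did not pass. Over all genes tested 27.7% rose and 30.2% fell, so the 40.4% of members that rose stand above that background and the 10 of 57 that fell below it. The median log2 fold change was 0.18 over members and −0.01 over all genes. Rising members were mostly from the H3K4 methyltransferases and core subunits (6 of 10, none of the 6 a core subunit) and the demethylases (8 of 13). Of 9 acetyltransferases 1 rose (11.1%), and of 5 class I and IV deacetylases 1 rose (20%), against 27.7% of all genes. Classes of this size were not tested against the background. Without Ngn3-low replicate 1 the counts were 16 and 6, and without Ngn3-low replicate 2 they were 13 and 6. With scaling to total counts, 19 rose and 13 fell. Of the 33 calls, 18 held in each of the 12 alternative analyses. In bulk RNA, fewer cells of a type and less RNA per cell cannot be told apart.

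From Ngn3-high to Ins1-RFP+ cells, 9 members rose, 25 fell and 23 did not pass. Embryonic day, reporter and cell type change together between the E13.5 gates and Ins1-RFP+ cells, and cannot be told apart. Words such as step and interval name differences between these sorted groups. The background was 26.1% rising and 24.9% falling, against 15.8% and 43.9% of members, and the median was −0.32 over members and 0.01 over all genes. No demethylase rose and 10 of 13 fell, while 4 of 6 class II deacetylases rose and 1 fell. Of those 4 rises, Hdac4 and Hdac10 were lost when single libraries were left out, and Hdac7 and Hdac9 are given below beside white blood cell markers. Both comparisons use the same 2 Ngn3-high libraries, so opposite directions in them are not independent. Of the 34 calls, 22 held in each of the 12 alternatives. Comparing Ins1-RFP+ directly with Ngn3-low cells, 16 members rose and 19 fell, or 28.1% and 33.3%, close to the 30.4% and 35.5% of all genes. Fewer members fell there without Ngn3-low replicate 1, Ngn3-low replicate 2 or Ins1-RFP+ replicate 2. Fewer of all genes fell too, but the drop was smaller in proportion. The median log2 change in those settings was −0.01, −0.05 and −0.02 over members and −0.06, −0.08 and −0.08 over all genes.

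**Figure D1:**
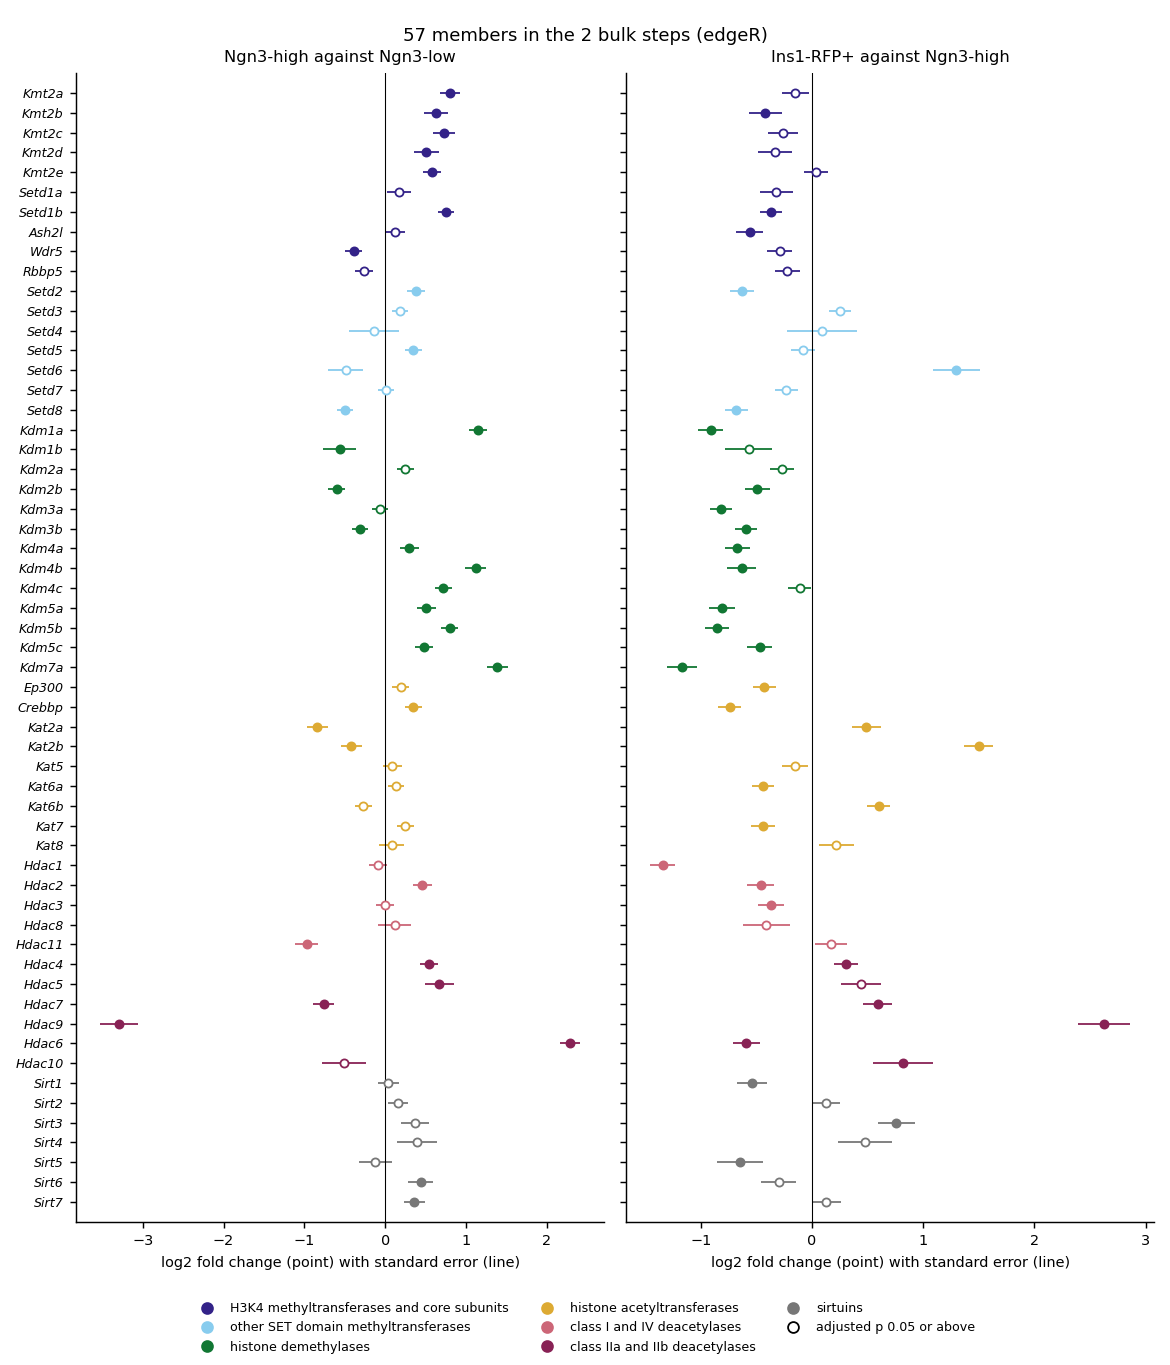
Log2 fold changes of all 57 members (x axis, points, with standard errors as lines) from Ngn3-low to Ngn3-high cells (left) and from Ngn3-high to Ins1-RFP+ cells (right), coloured by role; filled points passed an edgeR adjusted p of 0.05. Demethylases lie mostly right of 0 on the left (8 rose) and left of 0 on the right (10 fell), and Hdac6 at 2.29 and Hdac9 at −3.29 stand farthest from 0 in the first comparison.

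Among the members grouped as H3K4 methyltransferases, Kmt2a, Kmt2b, Kmt2c, Kmt2d, Kmt2e and Setd1b rose in Ngn3-high cells. The rises were 0.51 to 0.80 on the log2 scale, and Setd1a did not pass (0.17). Kmt2a, the founding member of the family and a regulator of Hox genes, had the largest change. It stood at 183 and 219 CPM in the 2 Ngn3-low libraries, 338 and 322 in Ngn3-high and 269 and 295 in Ins1-RFP+ libraries. The E13.5 groups did not overlap, and the log2 change was 0.80 ± 0.123 (SE; edgeR adjusted p = 0.000653). The later step was smaller, at −0.15 ± 0.123 (edgeR adjusted p = 0.349), and Ins1-RFP+ libraries stayed above Ngn3-low ones by 0.66 ± 0.123. Kmt2d, which places H3K4me1 at enhancers, measured 319 and 390 CPM in Ngn3-low, 527 and 422 in Ngn3-high and 341 and 372 in Ins1-RFP+ libraries. Its rise of 0.51 ± 0.154 lost the call without Ngn3-low replicate 1 (0.39, edgeR adjusted p = 0.148) and without Ngn3-high replicate 1 (0.31, edgeR adjusted p = 0.139). Kmt2b also gave 0.39 rather than 0.63 without Ngn3-high replicate 1.

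Wdr5, Rbbp5 and Ash2l, the core subunits, did not rise in Ngn3-high cells. Wdr5, a propeller protein that holds the complex together, stood at 106 and 106 CPM in Ngn3-low, 81.0 and 71.5 in Ngn3-high and 60.4 and 57.5 in Ins1-RFP+ libraries. It fell at E13.5 by 0.39 ± 0.109 (edgeR adjusted p = 0.0149), a call lost when any E13.5 library other than Ngn3-high replicate 1 was left out, and was lower in Ins1-RFP+ than in Ngn3-low cells by a log2 of −0.68 ± 0.109. Rbbp5, the scaffold beside it, ran from 59.5 and 63.3 CPM through 46.8 and 50.2 to 41.3 and 37.2. Its E13.5 change of −0.26 did not pass (edgeR adjusted p = 0.0852), and its change over the whole interval, −0.48, did (edgeR adjusted p = 0.00619), though not without Ins1-RFP+ replicate 2 (edgeR adjusted p = 0.0599). Ash2l, which stimulates the catalytic subunit, measured 112 and 120 CPM, then 107.8 and 130, then 70.3 and 82.2, with an E13.5 change of 0.12 that did not pass. It fell in Ins1-RFP+ against Ngn3-high cells (−0.56 ± 0.123, edgeR adjusted p = 0.00609) and against Ngn3-low cells (−0.44, edgeR adjusted p = 0.0126), the latter lost without Ngn3-low replicate 2 or Ins1-RFP+ replicate 1. That the steps differ was not tested.

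The 12 further partner subunits, such as Dpy30 and Men1, gave 6 rises and 1 fall from Ngn3-low to Ngn3-high, and 0 rises and 5 falls from Ngn3-high to Ins1-RFP+ cells. Those shares were 50% and 8.33% against 27.7% and 30.2% of all genes, then 0% and 41.7% against 26.1% and 24.9%. Paxip1, a subunit of the Kmt2c and Kmt2d complexes, went from 74.7 ± 3.32 to 163 ± 17.1 and 102.8 ± 20.6 CPM (SD, n = 2). Hcfc2 rose from 21.7 ± 0.527 to 43.7 ± 2.74 CPM and stood at 47.5 ± 0.974 in Ins1-RFP+ cells. Dpy30, another subunit shared by all these complexes, rose by a log2 of 0.64 at E13.5 (edgeR adjusted p = 0.00368).

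Of the 7 other SET domain members, Setd2 and Setd5 rose and Setd8 fell in Ngn3-high cells. That is 28.6% and 14.3%, against 27.7% and 30.2% of all genes. Setd2, which trimethylates H3K36, changed by 0.38 and then by −0.63, and Setd5 by 0.35; the E13.5 calls of Setd2 and Setd5 were lost without 3 and 4 of the 4 E13.5 libraries in turn. Setd8, which methylates H4K20 during the cell cycle, was lower at each step: 95.5 and 94.5 CPM in Ngn3-low, 61.5 and 65.3 in Ngn3-high and 36.6 and 38.2 in Ins1-RFP+ libraries. No group overlapped another, and over the whole interval Setd8 fell by 1.18 on the log2 scale (SE 0.103, edgeR adjusted p = 1.89e-05). Summed cell division markers were also lower in Ngn3-high cells, as given above, and their part in this result was not tested. Setd6, a lysine methyltransferase with targets outside histones, was low throughout, with 8.22 and 8.92, 6.47 and 4.93, and 13.8 and 12.9 CPM, and rose by 1.30 ± 0.215 in Ins1-RFP+ over Ngn3-high cells. Setd3, an actin methyltransferase, rose from Ngn3-low to Ins1-RFP+ cells by 0.43. Setd4 and Setd7 passed in none of the 3 comparisons, with log2 changes between −0.23 and 0.09.

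Of the 13 demethylases, 8 rose and 3 fell in Ngn3-high cells, or 61.5% and 23.1% against 27.7% and 30.2% of all genes. Kdm7a, which removes methyl groups from H3K9 and H3K27, stood at 154 and 157 CPM in Ngn3-low, 343 and 427 in Ngn3-high and 151 and 172 in Ins1-RFP+ libraries. Both Ngn3-high libraries lay above the other 4. The changes were 1.39 ± 0.134 (edgeR adjusted p = 4.14e-05) and −1.17 ± 0.133 (edgeR adjusted p = 0.00021), and Ins1-RFP+ against Ngn3-low cells gave 0.22 (edgeR adjusted p = 0.173).

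Kdm1a, the flavin-dependent H3K4 demethylase LSD1, showed the same shape at a higher level. Its values were 229 and 223 CPM in Ngn3-low, 464 and 482 in Ngn3-high and 242 and 235 in Ins1-RFP+ libraries, and again both Ngn3-high libraries lay above the other 4. It rose by 1.15 ± 0.112 (edgeR adjusted p = 4.37e-05) and then fell by 0.91 (SE 0.111, edgeR adjusted p = 0.000316). The gene overlaps the coding gene Luzp1 in RefSeq, and the strand setting of the counting is not given in the sources used here. Its paralog Kdm1b was at 23.8 and 27.1, 15.8 and 16.8, and 8.29 and 12.6 CPM, and its E13.5 fall of 0.56 lost the call when any 1 of the 4 E13.5 libraries was left out (edgeR adjusted p 0.0995 to 0.199).

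Kdm1a works in the CoREST complex with Hdac1 and Hdac2, and Rcor genes encode its scaffold. Rcor2 stood at 139 ± 9.08 CPM in Ngn3-low, 349 ± 22.7 in Ngn3-high and 65.9 ± 4.32 in Ins1-RFP+ cells (SD, n = 2). It rose by 1.41 ± 0.115 (edgeR adjusted p = 1.54e-05) and then fell by 2.32 (SE 0.119, edgeR adjusted p = 5.09e-06). Rcor1 changed by 0.56 and −0.53, and Rcor3 by 0.58 and 0.36; Rcor1 and Rcor3 were chosen for the text after their values were seen. Across the 28 corepressor subunits listed, 11 rose and 3 fell at E13.5, or 39.3% and 10.7% against 27.7% and 30.2% of all genes. Then 3 rose and 13 fell, or 10.7% and 46.4% against 26.1% and 24.9%. Sin3b, a scaffold of another deacetylase complex, rose by 0.83 and Rbbp7, a histone chaperone shared by several complexes, fell by 0.78.

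Kdm4 genes encode H3K9 and H3K36 demethylases, and all 3 listed here rose in Ngn3-high cells. Kdm4b moved most, from 71.9 and 75.3 CPM to 169 and 133, and then to 93.8 and 90.5 in Ins1-RFP+ libraries. No groups overlapped; it rose by 1.12 ± 0.132 (edgeR adjusted p = 0.000133) and then fell by 0.63. Kdm4c rose by 0.72 at E13.5 and did not pass in the second comparison (−0.11). Kdm4a had a rise of 0.30 (edgeR adjusted p = 0.0483) that 8 of the 12 alternatives did not call.

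The Kdm5 genes, whose products remove H3K4me3 and H3K4me2, moved together. Kdm5b stood at 229 and 222 CPM in Ngn3-low, 368 and 375 in Ngn3-high and 196 and 193 in Ins1-RFP+ libraries, with no overlap between groups. It rose by 0.80 ± 0.107 (edgeR adjusted p = 0.000287) and fell by 0.85 (SE 0.107, edgeR adjusted p = 0.00036). Kdm5a changed by 0.51 and −0.81, and the X-linked Kdm5c by 0.48 and −0.47; the E13.5 calls of both were lost without Ngn3-low replicate 2. In Ins1-RFP+ against Ngn3-high cells the 3 Kdm5 genes and Kdm1a fell, the Kdm5c call being lost without Ins1-RFP+ replicate 2. Of the members grouped as H3K4 methyltransferases, Kmt2b (−0.42, edgeR adjusted p = 0.0426) and Setd1b (−0.37, edgeR adjusted p = 0.0156) fell there too. Both calls were lost without Ngn3-high replicate 1 or Ins1-RFP+ replicate 2. The Kmt2b call was also lost without either Ngn3-low library, with DESeq2 scaling factors and with only the 2 groups in the fit. Kmt2a, Kmt2c, Kmt2d, Kmt2e and Setd1a did not pass.

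Kdm2 and Kdm3 genes took another course. Kdm2b, an H3K36 demethylase that brings Polycomb complexes to CpG islands, stood at 74.0 and 72.6 CPM in Ngn3-low, 44.3 and 47 in Ngn3-high and 29.7 and 31.5 in Ins1-RFP+ libraries. It fell at each step without overlap, by a log2 of −1.09 ± 0.109 over the whole interval (edgeR adjusted p = 4.17e-05). Kdm3a, an H3K9 demethylase, measured 123 and 123, 111 and 111, and 61.1 and 57.7 CPM: the E13.5 difference was −0.06 and the later one −0.82 ± 0.0984 (edgeR adjusted p = 0.000274). Kdm3b changed by −0.31 and −0.59, the former lost with no filter on low counts and without either Ngn3-low library or Ngn3-high replicate 2. Kdm2a passed in none of the 3 comparisons (0.25, −0.27 and −0.02).

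**Figure D2:**
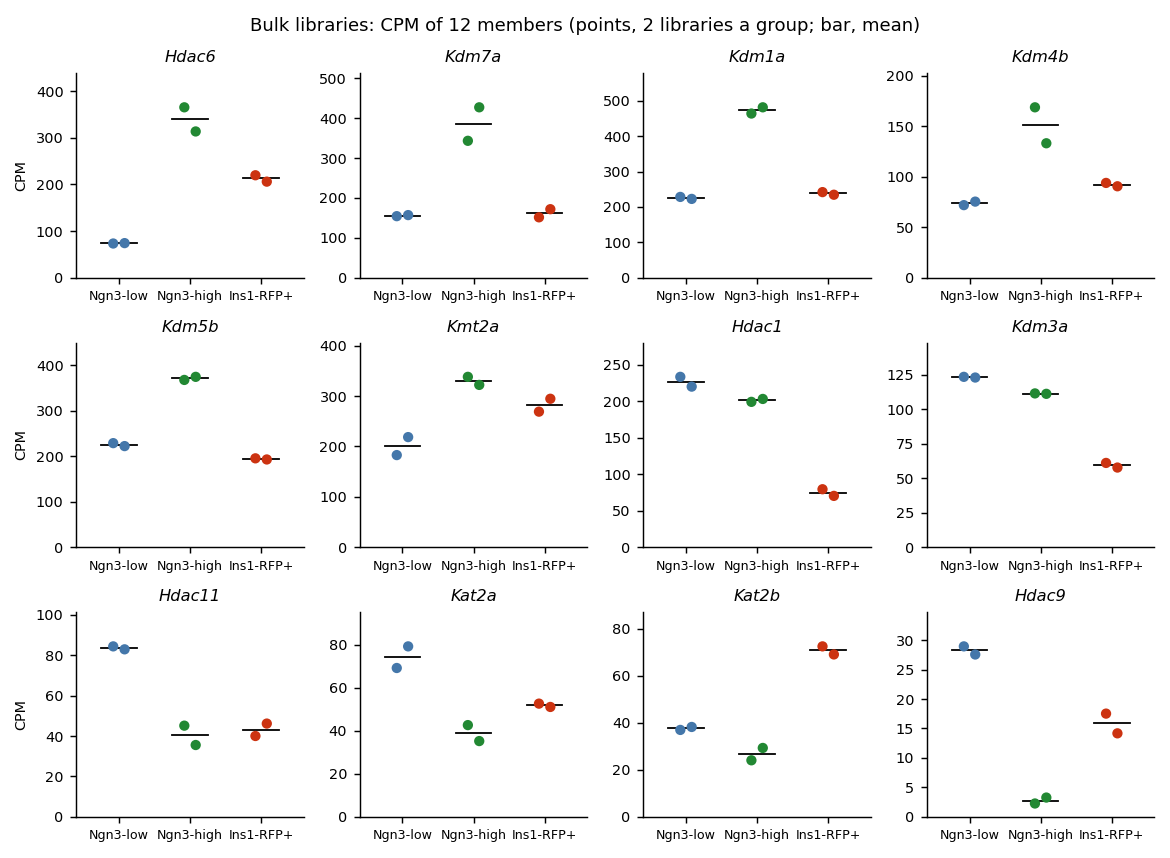
CPM of 12 members (y axis, from 0) in the 6 bulk libraries, as points with the group mean as a bar. Kdm7a, Kdm1a, Kdm4b and Kdm5b are highest in both Ngn3-high libraries, Hdac1 drops to 79.5 and 70.4 CPM in Ins1-RFP+ libraries, and Kat2b is highest there at 72.5 and 69.1 CPM.

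Among acetyltransferase paralogs, Ep300 and Crebbp shared the sign of their log2 changes at both steps, as did Kat2a and Kat2b. Kat6a and Kat6b had opposite signs. Ep300 and Crebbp, the large coactivators that acetylate H3K27, were close to each other in Ngn3-low libraries, at 233 and 226 CPM for Ep300 and 228 and 232 for Crebbp. Ep300 was at 248 and 248 CPM in Ngn3-high and 174 and 174 in Ins1-RFP+ libraries, with log2 changes of 0.19, which did not pass, and −0.43 ± 0.103 (edgeR adjusted p = 0.00876), the latter lost without Ins1-RFP+ replicate 2 (adjusted p = 0.0514). Crebbp was at 276 and 277 and then 159 and 154 CPM, with changes of 0.35, lost without either Ngn3-low library, and −0.74 ± 0.103 (edgeR adjusted p = 0.000612).

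Kat2a and Kat2b encode the GCN5 and PCAF enzymes, which are alternative catalytic subunits of the same complexes. Kat2a stood at 69.2 and 79.3 CPM in Ngn3-low, 42.6 and 35.2 in Ngn3-high and 52.6 and 51.1 in Ins1-RFP+ libraries. It fell by 0.84 (SE 0.132, edgeR adjusted p = 0.000735). The later change of 0.49 lost the call without Ngn3-high replicate 2 or Ins1-RFP+ replicate 1. Kat2b went from 36.9 and 38.2 through 24.02 and 29.3 to 72.5 and 69.1 CPM, so that its highest libraries were the Ins1-RFP+ ones. It rose from Ngn3-high to Ins1-RFP+ cells by 1.50 ± 0.129 (edgeR adjusted p = 4.95e-05), and its E13.5 value of −0.42 lost the call without 3 of the 4 E13.5 libraries. Per length, Kat2a stood at 22.7 and Kat2b at 8.07 RPKM in Ngn3-low, and at 15.9 and 15.2 RPKM in Ins1-RFP+ cells.

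The MYST enzymes Kat6a, which is essential for blood stem cells, Kat7, the HBO1 enzyme of H3K14, and Kat6b did not pass at E13.5 (0.14, 0.25 and −0.27). In Ins1-RFP+ against Ngn3-high cells Kat6a and Kat7 fell, each by 0.44 (Kat7 not without Ins1-RFP+ replicate 2, edgeR adjusted p = 0.0816), while Kat6b rose by 0.60. Kat5, the Tip60 enzyme, and Kat8, the H4K16 enzyme, passed in none of the 3 comparisons, with changes between −0.15 and 0.30. Of 28 partner subunits tested, 8 rose and 7 fell at E13.5, or 28.6% and 25%, near the 27.7% and 30.2% of all genes. Afterwards 4 rose and 7 fell, or 14.3% and 25% against 26.1% and 24.9%. Jade3, a scaffold of the Kat7 complex, rose from 47.6 ± 3.84 to 190 ± 13.3 CPM (SD, n = 2), and its relative Jade2 fell by 1.31 and then rose by 2.86 to 29.1 ± 7.77 CPM. The 14 bromodomain readers, which bind acetylated histones, gave 7 rises and 0 falls at E13.5 and 0 rises and 10 falls afterwards. Their rises at E13.5 were 50% against 27.7% of all genes, and their later falls 71.4% against 24.9%. Cecr2, a subunit of a nucleosome remodelling complex, went from 32.6 ± 1.07 to 107.6 ± 0.0703 and 19.6 ± 0.108 CPM (SD, n = 2), and Baz2a and Baz2b rose by 0.87 and 0.70 at E13.5.

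Of the class I deacetylases, the nuclear enzymes of corepressor complexes, Hdac1, Hdac2 and Hdac3 fell from Ngn3-high to Ins1-RFP+ cells and Hdac8 did not pass. Hdac1 stood at 234 and 220 CPM in Ngn3-low, 199 and 203 in Ngn3-high and 79.5 and 70.4 in Ins1-RFP+ libraries. The E13.5 difference was −0.09 (edgeR adjusted p = 0.51), and Hdac1 then fell by 1.34 (SE 0.113, edgeR adjusted p = 4.46e-05), the largest fall of any member in that comparison. Its close paralog Hdac2 was at 158 and 153, 181 and 224, and 138 and 140 CPM. Hdac2 changed by 0.46, lost without Ngn3-low replicate 2, and by −0.46, lost without Ngn3-high replicate 2, and by 0.00 ± 0.121 from Ngn3-low to Ins1-RFP+ cells, where Hdac1 changed by −1.43 ± 0.113. Per length, Hdac1 was at 111 and Hdac2 at 47.9 RPKM in Ngn3-low, and Hdac1 at 36.8 and Hdac2 at 42.6 RPKM in Ins1-RFP+ cells. Hdac3, the catalytic subunit of the NCoR complex, fell by 0.37 in the second comparison, a call lost without Ngn3-high replicate 1 or either Ins1-RFP+ library. Hdac8, which also acts on cohesin, stood at 11.1 and 10.96 CPM in Ngn3-low libraries and passed in none of the comparisons. Hdac11, the only class IV enzyme, went from 84.4 and 82.9 to 45.1 and 35.5 CPM at E13.5, a fall of 0.97 (SE 0.143, edgeR adjusted p = 0.000528), and stood at 40.01 and 46.2 CPM in Ins1-RFP+ libraries.

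Class II held both the largest rise and the largest fall of any member at E13.5. Hdac6 (chrX:7930116-7948047), a mostly cytoplasmic enzyme that deacetylates tubulin, stood at 73.4 and 74.2 CPM in Ngn3-low, 366 and 314 in Ngn3-high and 220 and 206 in Ins1-RFP+ libraries. No group overlapped another. It rose by 2.29 ± 0.126 (edgeR adjusted p = 1.86e-06), fell by 0.59 and was higher in Ins1-RFP+ than in Ngn3-low cells by 1.70 ± 0.124. Hdac9, a class IIa enzyme known from muscle and immune cells, stood at 28.9 and 27.6 CPM in Ngn3-low, 2.25 and 3.26 in Ngn3-high and 17.52 and 14.2 in Ins1-RFP+ libraries. Its changes were −3.29 ± 0.234 (edgeR adjusted p = 7.19e-06) and 2.63 ± 0.234 (edgeR adjusted p = 5.78e-05).

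White blood cell markers were highest in Ngn3-low and lowest in Ngn3-high libraries. Among members that fell at E13.5, Hdac9, Hdac7, Kat2a and Hdac11 had group means in that order. The Ngn3-high and Ins1-RFP+ libraries of Hdac11 overlapped. Setd4, which passed in no comparison, had the same order. All 12 markers were detected in Ngn3-low and in Ins1-RFP+ libraries, and 10 of 12 in Ngn3-high, where Cd53 and Fcgr1 were at 0. Endothelial markers summed to 486 and 531 CPM in Ngn3-low, 15.7 and 9.87 in Ngn3-high and 61.7 and 73.5 in Ins1-RFP+ libraries. In the single-cell groups, where white blood cell markers summed to at most 16.7 CPM, Hdac9 stood at 0.247 and 0.230 CPM in the WT gates and at 0.192 and 0.930 CPM in the deleted gates (Ngn3-low first). Hdac7, which is abundant in endothelium and thymus, was at 39.3 and 46.8, 24.6 and 23.4, and 34.4 and 34.1 CPM in bulk, and at 3.84 to 8.92 CPM in single cells. Kat2a, by contrast, was at 27.8 to 73.1 CPM in single cells, and values of Hdac11 there are given below. What white blood cells and endothelium contributed to the bulk values of these genes was not tested.

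Hdac5 and Hdac4, class IIa enzymes that shuttle between nucleus and cytoplasm, rose from Ngn3-low to Ins1-RFP+ cells. Hdac5 stood at 85.0 and 74.0, 135 and 104, and 174 and 131 CPM, and Hdac4 at 44.1 and 47.8, 65.7 and 60.4, and 74.7 and 73.1 CPM. From Ngn3-low to Ins1-RFP+ cells Hdac5 rose by 1.11 ± 0.184 (edgeR adjusted p = 0.000833) and Hdac4 by 0.85 ± 0.108 (edgeR adjusted p = 0.000171). Against Ngn3-high cells, the Hdac5 libraries overlapped (0.44, edgeR adjusted p = 0.0747). The Hdac4 rise of 0.31 over Ngn3-high cells (edgeR adjusted p = 0.0394) was lost without either Ngn3-low library, Ngn3-high replicate 2 or either Ins1-RFP+ library, and with total-count scaling, no filter or only the 2 groups in the fit. At E13.5 Hdac5 gave 0.67, a call lost without Ngn3-high replicate 1 (0.44) or Ngn3-low replicate 2 (0.56). Hdac10, a polyamine deacetylase, rose by 0.82 from Ngn3-high to Ins1-RFP+ cells (edgeR adjusted p = 0.033), but gave 0.44 without Ngn3-high replicate 2 (edgeR adjusted p = 0.104), 0.67 without Ins1-RFP+ replicate 1 (edgeR adjusted p = 0.0786) and 1.36 without Ngn3-high replicate 1.

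Among the 7 sirtuins, 2 rose and 0 fell at E13.5, or 28.6% and 0% against 27.7% and 30.2% of all genes. From Ngn3-high to Ins1-RFP+ cells 1 rose and 2 fell, or 14.3% and 28.6% against 26.1% and 24.9%. The E13.5 rises and the later falls thus lay near the background. Sirt1, the best-known nuclear member, was at 38.2 and 46.7 CPM in Ngn3-low, 40.2 and 41.98 in Ngn3-high and 25.1 and 28.3 in Ins1-RFP+ libraries. It differed by 0.04 at E13.5 and fell by 0.54 (SE 0.136, edgeR adjusted p = 0.0112) in Ins1-RFP+ cells, a call lost without Ins1-RFP+ replicate 1. The mitochondrial Sirt3 rose over the whole interval by 1.13 ± 0.166 (edgeR adjusted p = 0.00042), from 13.1 and 12.4 to 27.1 and 22.7 CPM. Mitochondrial Sirt4 rose by 0.87 and Sirt5 fell by 0.77 between the same groups, both lost without Ngn3-low replicate 2. Sirt6 and Sirt7, nuclear and nucleolar enzymes, rose at E13.5 by 0.44 and 0.36, calls that leaving out any 1 of 3 E13.5 libraries removed. Sirt2, a cytoplasmic tubulin deacetylase, passed in none of the comparisons (0.16, 0.13 and 0.30).

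Genes of the same chemistry outside the naming rule were counted from a list of 31 tested methyltransferases and demethylases. Of these, 11 rose and 13 fell at E13.5, or 35.5% and 41.9% against 27.7% and 30.2% of all genes tested. From Ngn3-high to Ins1-RFP+ cells 5 rose and 9 fell, or 16.1% and 29% against 26.1% and 24.9%. Prmt3, an arginine methyltransferase of ribosomal protein, fell from 62.03 ± 5.16 to 17.54 ± 2.40 CPM (SD, n = 2), Smyd5 from 42.5 ± 1.66 to 13.7 ± 2.51 CPM, and the H3K9 methyltransferase Suv39h2 from 15.8 ± 0.495 to 5.63 ± 1.26 CPM.

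Single-cell titles carry a number whose meaning (litter, plate or embryo) the labels do not give, and no animal is named. Each single-cell group was therefore treated as 1 sample, with no test, and intervals cover counting error only. Members were counted when the summed counts of 2 groups differed by more than 1.5-fold on log2(CPM + 1) and reached 5 CPM in either. Between WT gates, 5 of 55 members were higher in Ngn3-high cells (Kdm7a, Hdac6, Kdm4b, Kdm4c and Kdm5b) and 9 were lower, against 22.8% and 29.1% of 11792 genes. Between deleted gates, 15 of 56 were higher and 6 lower, against 24.7% and 28.1% of 11815 genes. Both shares of WT members lie under the background. Between deleted gates the 15 of 56 lie close to it and the 6 of 56 under it. Among cells of title numbers that both WT gates share, 12 of 55 members were higher and 11 lower, against 24.6% and 30.2% of all genes. The 12 of 55 thus lie close to the background of that setting. Without title number 2 the higher count was 9, against 23.3% of all genes.

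Of the 23 members that rose in bulk, 19 had the same sign between WT gates and 22 between deleted gates. Fewer were past 1.5-fold in that direction, 5 of 23 in WT and 13 of 23 in deleted cells. The share of all genes with the same sign was not computed. Kmt2b, Setd5, Kdm4a and Hdac4 had the other sign in WT cells, and Setd5 in deleted cells. Of the 10 that fell, 9 and 8 had the same sign, with Kdm2b the exception in WT cells and Setd8 and Hdac9 in deleted cells. Past 1.5-fold in that direction were 4 in WT and 3 in deleted cells. Among those at 5 CPM or more, none was past 1.5-fold in the other direction in the pooled groups. Kdm2b was at 28.6 CPM in WT Ngn3-low and 41.2 in WT Ngn3-high cells, a log2 ratio of 0.51. Its WT ratios were 1.74 and 0.62 in title numbers 1 and 5, and its deleted ratio was −0.27. Hdac9, under 1 CPM in all 4 groups, had a log2 ratio of 0.70 in deleted cells.

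**Figure D3:**
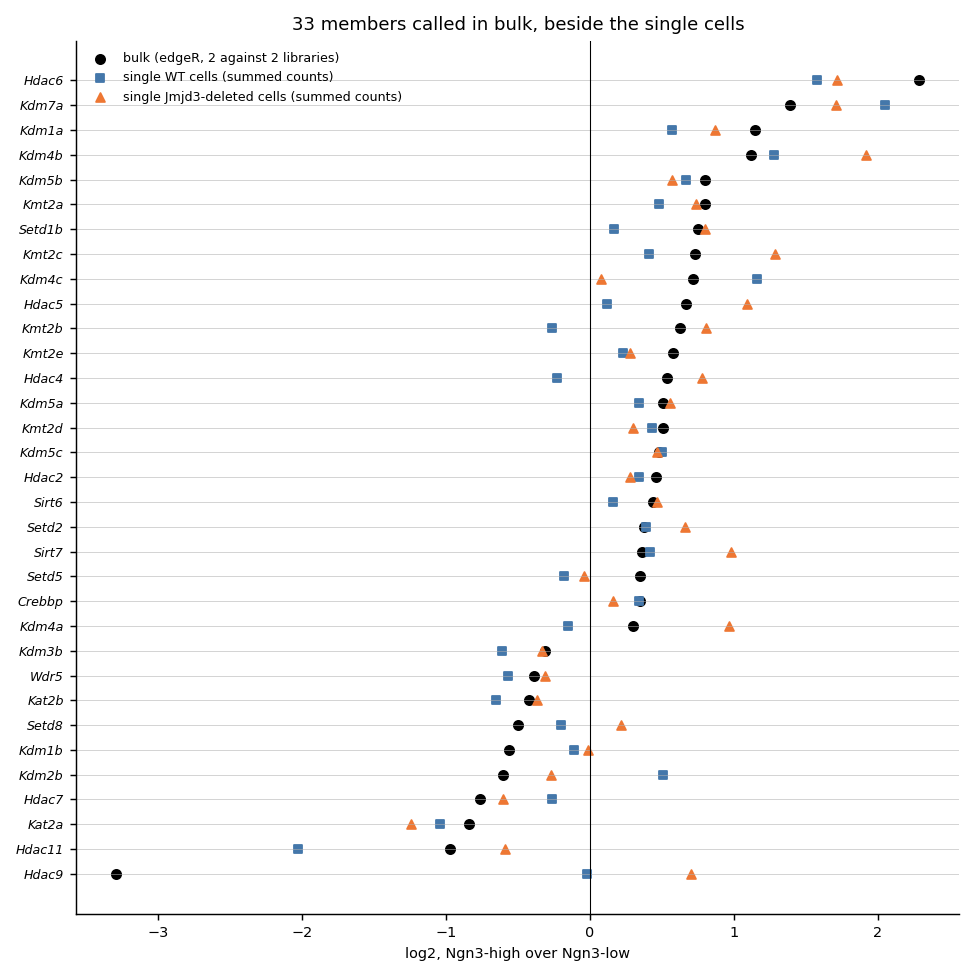
Log2 of Ngn3-high over Ngn3-low (x axis) for the 33 members called in bulk, from bulk (black), single WT cells (blue squares) and single deleted cells (orange triangles), ordered by the bulk value. Hdac6, Kdm7a and Kdm4b lie right of 1 and Kat2a left of −0.8 in all 3, while Hdac9 is at −3.29 in bulk and at −0.02 and 0.70 in single cells.

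Kdm7a gave the largest WT difference. WT cells held 34.5 CPM (95% Poisson interval 32.5 to 36.6) in the low gate and 146 (143 to 150) in the high gate, and deleted cells 49.6 (47.7 to 51.6) and 164 (160 to 169). At 10 CPM or more it was detected in 55.1% and 93.2% of WT cells and in 56.5% and 97.7% of deleted cells. The log2 ratios of 2.05 and 1.71 kept their direction within title numbers 1 and 5 in both genotypes (1.68 to 2.20).

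Hdac6 stood at 65.7, 199, 67.4 and 224 CPM in the same order, with log2 ratios of 1.58 and 1.72. The share of cells at 10 CPM differed less than the level: 71.4% and 78.0% in WT, 65.2% and 77.3% in deleted cells. The median cell was at 52.02 and 79.8 CPM in WT gates, and 1 cell held 19.3% of all Hdac6 reads in WT Ngn3-high. Kdm4b stood at 47.2, 116, 34.2 and 132 CPM, with ratios of 1.28 and 1.92; among title numbers, the WT ratio was 0.86 in number 1 and 0.12 in number 5. Kdm1a stood at 68.7, 102.6, 50.9 and 93.8 CPM, with ratios of 0.57 and 0.87, both under the bulk value.

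Kat2a was lower in Ngn3-high cells of both genotypes. It stood at 58.4 and 27.8 CPM in WT and 73.1 and 30.3 in deleted cells, with detection in 79.6% and 50.8% of WT and 85.5% and 61.4% of deleted cells. Hdac11 was at 56.3 and 13.1 CPM in WT gates and 41.01 and 26.9 in deleted gates, with 18.6% and 22.7% of Ngn3-high cells at 10 CPM and a median cell of 0 in both. Its deleted ratio of −0.59 became 0.14 without title number 1, and 1 cell held 31.8% of its reads in deleted Ngn3-high. Sirt1 was detected in 24.5% and 5.08% of WT and 23.2% and 2.27% of deleted cells, at 9.87, 3.95, 12.7 and 3.502 CPM.

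Some members had a larger ratio between the gates in 1 genotype than in the other. Kdm4c was at 28.95 and 65.7 CPM in WT and 39.03 and 41.3 in deleted cells, but its WT ratio was 2.25 in title number 5 and 0.20 in number 1. Kmt2c was at 111 and 148 CPM in WT and 75.8 and 187 in deleted cells, and so higher in Ngn3-high cells of both genotypes. Its ratio was 0.41 in WT (0.82 and −0.30 in title numbers 1 and 5) and 1.29 in deleted cells. Hdac5 was at 43.2 and 47.2 CPM in WT and 27.2 and 59.01 in deleted cells. With 1 sample a group, a difference of these ratios between genotypes could not be tested.

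**Figure D4:**
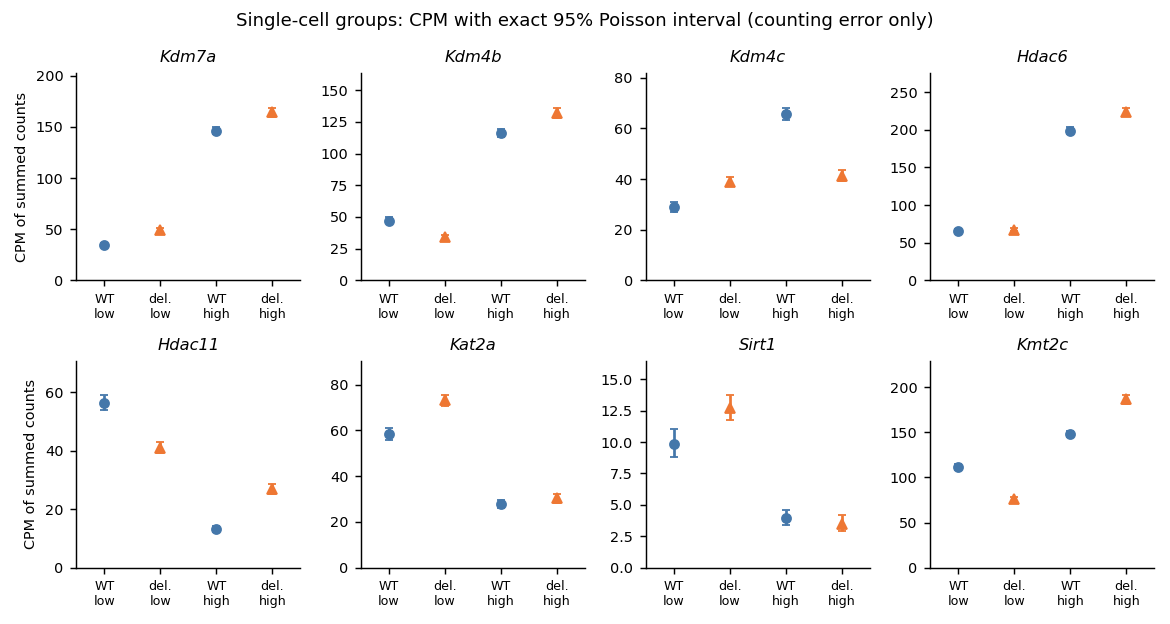
CPM of summed counts (y axis, from 0) for 8 members in the 4 single-cell groups, with exact 95% Poisson intervals that cover counting error only; blue circles are WT and orange triangles Jmjd3-deleted cells. Kdm7a, Kdm4b and Hdac6 are higher in Ngn3-high than in Ngn3-low cells of both genotypes, and Kat2a and Sirt1 are lower.

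The 10 H3K4 methyltransferases and core subunits had a median log2 ratio of −0.32 in deleted against WT Ngn3-low cells and of 0.11 in Ngn3-high cells. Medians over all genes at 5 CPM or more were 0.02 and 0.03. Without title number 2, the median of all members in Ngn3-low cells went from −0.07 to 0.03. In Ngn3-low cells Setd1a was at −0.78, and between −0.90 and −0.75 in title numbers 1, 2 and 5. Kmt2b was at −0.59, with 1.67, −1.41 and −0.81 in the same numbers. Kmt2c was at −0.55 (0.16, −0.56 and −1.43), Kmt2a at −0.39 (0.24, −1.2 and 1.49) and Rbbp5 at −0.31 (−0.5, −0.05 and −1.33). The direction thus changed between title numbers for Kmt2b, Kmt2c and Kmt2a. The subunit Ash2l and other genes chosen for the text by name follow. In the order WT low gate, WT high gate, deleted low gate and deleted high gate, Ash2l stood at 158, 163, 165 and 160 CPM, Kmt2d at 176, 238, 174 and 214 CPM, and Kdm5b at 211, 335, 244 and 362 CPM. Hdac1 stood at 195, 152, 198 and 141 CPM, Hdac2 at 211, 268, 217 and 263 CPM, and Crebbp at 129, 164, 128 and 144 CPM. Wdr5 was at 120, 80.6, 100 and 80.6 CPM and Ep300 at 69.5, 64.3, 58.9 and 57.9 CPM.

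In deleted against WT Ngn3-low cells, 2 of 56 members were higher (Kat6a and Hdac7) and 5 lower (Sirt4, Setd1a, Hdac5, Hdac4 and Kmt2b), against 6.27% and 8.64% of 11268 genes, so members lay near the background. Kat6a was at 51.1 and 78.2 CPM, a log2 ratio of 0.60 with values of 0.91, 0.62 and 1.03 in title numbers 1, 2 and 5. Hdac4 was at 45.6 and 29.7 CPM, a ratio of −0.60 with −0.99, −1.02 and −0.41 in the same numbers. The lower count was 8 without title number 1, 3 without number 3 and 8 without number 4, and the higher count was 5 without number 2. In deleted against WT Ngn3-high cells, 4 of 55 were higher (Hdac11, Kdm4a, Sirt3 and Sirt7) and 1 lower (Kdm4c), against 9.56% and 7.24% of 11101 genes. Kdm4c was at 65.7 and 41.3 CPM, a ratio of −0.66 with −0.40, −0.90 and −1.68 in title numbers 1, 5 and 6. Sirt7 was at 46.6 and 72.8 CPM (0.63) and Sirt3 at 13.4 and 21.3 CPM (0.64). The Hdac11 ratio of 0.99 had title-number values of 0.53, 0.17 and 3.15. The lower count was 7, 3 and 5 without title numbers 1, 5 and 6. Over all genes the lower share also grew in those settings, from 7.24% to 14.1%, 10.2% and 10%. The lower counts of members thus lay near or under the background there.

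Depth and other markers differed between the groups compared. The median cell held 608883 reads in WT Ngn3-low and 734064 in deleted Ngn3-low cells, and 721848 and 738979 in Ngn3-high cells. Summed cell division genes stood at 3993 against 676 CPM (low against high gate) in WT and at 3261 against 472 CPM in deleted embryos, and white blood cell markers at 9.80 and 7.04, and 12.2 and 16.7 CPM. The part of these values in the differences between genotypes was not tested.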

How the data were processed

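Bulk RNA-seq of 6 libraries and Smart-seq2 RNA-seq of 221 single cells were analysed, while the 31 samples of chromatin immunoprecipitation were left aside. The authors deposited whole-number counts of reads per gene; build mm10, HTSeq 0.6.0 and TopHat2 2.1.0 with Bowtie2 are named in the submitters' processing notes. Neither the annotation nor the strand setting of the counting was given in the sources used here. Members that overlap another gene (30 of 57 in RefSeq, 11 of them a coding gene) are therefore uncertain. Per the labels' protocols the bulk kit was directional and selected poly(A) RNA, and the Smart-seq2 libraries carry no molecular identifiers. Deposited RPKM values were not used. The 92 ERCC rows were left out of all totals, and 0 columns had no sample.

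Bulk counts were tested with edgeR 4.0.16 in R 4.3.3 (trimmed-mean scaling, its expression filter, quasi-likelihood test over all 6 libraries, Benjamini-Hochberg adjustment over 15684 genes, threshold 0.05). DESeq2 1.42.0 was an alternative. The edgeR script was tested on simulated data. A count of 3 reads corresponds to 0.169 to 0.251 CPM in a bulk library and to 0.0575 to 0.0930 CPM in a single-cell group. Single-cell groups were summed to CPM, each with an exact 95% Poisson interval, and compared as log2(CPM + 1) without a test; a gene counted as detected in a cell at 10 CPM. Every cell held more than 350000 reads in genes, the depth used for thinning.

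Members named with values in each library were 13 fixed genes and, in each bulk comparison, the 6 largest rises and 6 largest falls among called members at 10 CPM or more. In single cells the rule took the 6 largest log2 ratios among members at 20 CPM and in 25% of cells of the higher group with 1 direction in every shared title number. Other members are given by range or change, and partner lists by counts with up to 3 called genes. The members and lists were chosen with earlier results of these data known. Alternatives were other scalings, no filter, fewer groups in the fit, DESeq2, a replicate block and leaving out each library; for single cells, other weights, scalings, pseudocounts, cell filters and title numbers.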

Additional observations from a re-analysis of the deposited data

How the results depend on the processing

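No bulk call of a member changed direction under the 12 alternatives, and 144 of the 1224 repeated calls were lost. Of 33, 34 and 35 calls in the 3 bulk comparisons, 18, 22 and 17 held in each alternative. Without 1 library at a time, the numbers of members that rose and fell were 13 to 22 and 6 to 10 for Ngn3-high against Ngn3-low, 6 to 11 and 19 to 26 for Ins1-RFP+ against Ngn3-high, and 11 to 17 and 10 to 19 for Ins1-RFP+ against Ngn3-low. A lone library left in a group was assumed to vary like the other groups. Total-count scaling moved the median of all genes from −0.08 to −0.24 in Ins1-RFP+ against Ngn3-low cells, where 12 members then rose and 23 fell, and fitting only those 2 groups gave 23 and 16. Bulk replicates shared only a number: deviations of same-numbered libraries correlated at 0.07, 0.03 and 0.09. With the replicate block the members that rose and fell were 23 and 11, 10 and 28, and 18 and 19.

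In single cells, weighting title numbers equally gave 8 WT members higher in Ngn3-high cells in place of 5, 1 higher in deleted Ngn3-low cells in place of 2, and 3 lower in deleted Ngn3-high cells in place of 1. That last count was 2 with a pseudocount of 0.1 CPM, 2 after thinning to 350000 reads and 3 with trimmed-mean scaling of the sums. Keeping only title numbers that both groups share, an alternative chosen after seeing the data, gave 12 WT members higher and 9 lower in deleted Ngn3-low cells. Over all genes those shares were 24.6% and 11.6%. The same alternative turned the WT ratios of Setd7 to 1.51 and Kdm3b to 0.33. Hdac11, at −0.59 between deleted gates, ran from −0.94 to 0.14 when 1 title number was left out, the latter without number 1. Leaving out 1 title number at a time gave 5 to 9 WT members higher and 7 to 9 lower, 13 to 16 and 6 to 9 between deleted gates, 2 to 5 and 3 to 8 in deleted against WT Ngn3-low cells, and 4 to 6 and 3 to 7 in Ngn3-high cells. Between genotypes the shares over all genes grew too when 1 title number was left out. In Ngn3-high cells the lower share, 7.24% in the main setting, was then 10% to 14.1%. In Ngn3-low cells the lower share, 8.64% in the main setting, was then 9.64% to 11.2%. The cause of these shifts was not tested. Low members such as Hdac9 rest on few reads in single cells, and with groups treated as 1 sample the spread between single-cell samples is unknown.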
